A study of Mus musculus with 20 samples.

Results

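The genes described here encode chromatin remodellers and histone-modifying enzymes with their close partners, read in 20 single cells of the mouse inner cell mass. They were chosen by gene name: SWI/SNF and other Smarc genes, Arid, Chd, Kdm, Kmt, Ehmt, Setd and Ezh genes, Suz12, Eed, and the numbered Cbx, Hdac, Sirt, Brd and Ing genes. Kdm5c, Kdm5d and Kdm6a, which lie on the sex chromosomes, were not taken. The rule found 108 genes among the 18194 genes that have a probe set of their own on the array, and each gene was read from its brightest probe set. Beyond gene names, the rule uses this brightness alone.

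Each array held amplified cDNA of 1 inner cell mass cell, taken on embryonic day 3.5 from blastocysts of C57BL/6 mice. The study picked 55 cells at random and kept 50 that were positive for Oct4 and negative for Cdx2 in a PCR screen. All 20 cells carry the same label, with no treatment and no mutation, and the embryo of each cell is not given. The cells were therefore handled as a single group, and the values below are descriptions of these cells with no p-value.

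Chromatin remodellers use ATP to slide, evict or exchange nucleosomes, while histone methyltransferases, demethylases and deacetylases write and erase marks on histone tails. Polycomb repressive complex 2 (PRC2) places methylation on lysine 27 of histone H3, a mark linked to silent developmental genes. The inner cell mass at this stage is known to sort into epiblast, which forms the embryo proper, and primitive endoderm, which forms extraembryonic yolk sac endoderm.

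Levels are given as log2(intensity + 8.49) after quantile normalisation, on a scale whose lowest possible value is 3.25. A floor was set for each array at the 95th percentile of its readings for 144 genes of unrelated tissues and odorant receptors, covered by 204 probe sets, and it lay between 6.77 and 7.66 over the arrays. A gene counted as detected in a cell when it stood above that cell's floor, and it was called measured when it stood above the floor in at least 3 cells. The number of genes above the floor per cell ran from 5926 to 7422. Cell 19 stood apart before normalisation, with a median deposited intensity below the 25.6 to 30.2 of the other cells. Brightness differs between probe sets for reasons other than transcript number, so levels are compared between cells for the same gene.

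Of the 108 chromatin genes, 25 stood above the floor in all 20 cells, which is 23.1% of them against 14.9% of all genes. A further 44 were above it in 10 to 19 cells, 20 in 3 to 9 cells and 4 in 1 or 2 cells. No cell was above the floor for 15 genes, 13.9% of the members against 39.9% of all genes. In all, 89 members were measured, 82.4% against 51.4% of all genes. A single cell had between 59 and 74 members above its floor. Each family except the chromobox proteins of PRC1, the H3K36 and H3K27 demethylases, the class II and IV deacetylases, the sirtuins and the ING proteins had at least 1 gene above the floor in every cell.

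**Figure D1:**
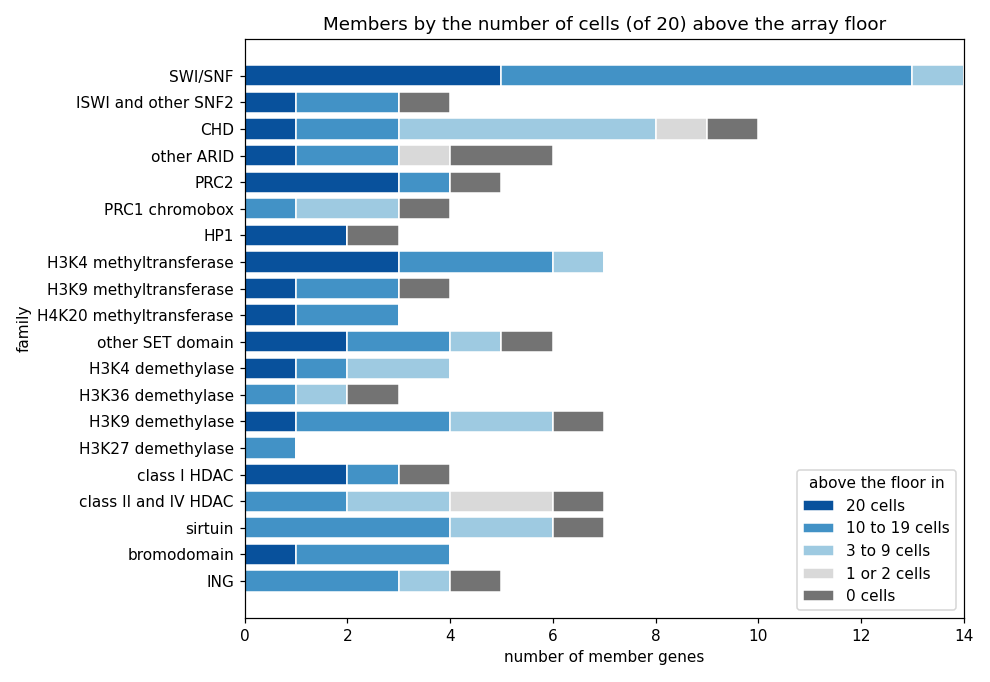
Number of member genes (horizontal axis) in each of 20 families (vertical axis), split by how many of the 20 cells stood above the array floor. All 14 SWI/SNF genes were measured and 5 of them stood above the floor in every cell, whereas none of the 7 sirtuins did.

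The genes above the floor in every cell included the catalytic cores of several machines. They were the remodelling ATPases Smarca4 (BRG1), Smarca5 (SNF2H) and Chd4 of the NuRD complex, with the SWI/SNF subunits Arid1a, Arid2, Smarcb1 and Smarce1. They also held the PRC2 core Ezh2, Eed and Suz12, the deacetylases Hdac1 and Hdac2, and the heterochromatin proteins Cbx1 and Cbx5. Among the methyltransferases they were Setd1a, Kmt2b, Kmt2c, Ehmt1, Kmt5a, Setd2 and Setd3, and among the demethylases Kdm1a (LSD1) and Kdm3a. Arid5b and Brd8 completed the list. Smarca5 averaged 11.86 ± 0.28 in epiblast-like and 11.68 ± 0.34 in primitive endoderm-like cells, clusters set by lineage markers as described further on, and Arid5b 11.13 ± 0.59 in epiblast-like and 11.04 ± 0.22 in primitive endoderm-like cells, neither differing by more than its spread.

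The 15 members above the floor in no cell were Chd5, Kdm8, Kdm4d, Setdb2, Cbx3, Ing4, Smarca1, Cbx8, Ezhip, Hdac8, Hdac9, Arid5a, Arid3a, Setd7 and Sirt5. Probe sets that also match another gene were left out by the rule, which removed 4 for Cbx3 and 1 for Ing4, so the reading of these genes rests on what remained. A dimmer probe set of Cbx8 was above the floor in 3 cells and that of Sirt5 in 4 cells. A reading under the floor gives only an upper bound and does not show that a transcript was absent. Chd3, Hdac7 and Arid4a were above the floor in 2 cells and Hdac5 in 1 cell.

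Promoter sequence was taken from RefSeq for mouse build GRCm38.p6, from 250 bases before to 50 bases after the start, for 87 of the 108 members. Where a gene had several starts, the start with the highest CpG ratio was used. CpG observed over expected, a measure of how far a stretch keeps its CpG pairs, had a median of 0.97 over the 20 promoters of members detected in every cell. It was 0.92 over 53 promoters of members detected in 1 to 19 cells, and 0.77 over 14 promoters of members detected in no cell. In all genes the same 3 medians were 0.85, 0.77 and 0.42, so the chromatin genes lay higher in each class. A ratio of at least 0.6 was found in 95% of the promoters of members detected in every cell, in 96.2% of those detected in 1 to 19 cells and in 64.3% of those detected in none, against 85.3%, 71.8% and 35.7% of all genes.

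The 250 bases before the start of 4 members are shown 5′ to 3′ on the strand of the gene, with CpG pairs in capitals, as examples of CpG-rich and CpG-poor promoters. Ezh2 and Kdm3a were above the floor in every cell, and Hdac9 and Smarca1 in none. All of them lie on the minus strand: Ezh2 at chr6:47595031-47595280, Kdm3a at chr6:71632687-71632936, Hdac9 at chr12:34528890-34529139 and Smarca1 at chrX:47892614-47892863.
Ezh2: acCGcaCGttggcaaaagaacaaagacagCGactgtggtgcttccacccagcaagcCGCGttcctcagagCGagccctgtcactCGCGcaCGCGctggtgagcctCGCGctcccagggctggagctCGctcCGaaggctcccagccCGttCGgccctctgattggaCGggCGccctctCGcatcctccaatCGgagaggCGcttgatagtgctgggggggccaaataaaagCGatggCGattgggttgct
Kdm3a: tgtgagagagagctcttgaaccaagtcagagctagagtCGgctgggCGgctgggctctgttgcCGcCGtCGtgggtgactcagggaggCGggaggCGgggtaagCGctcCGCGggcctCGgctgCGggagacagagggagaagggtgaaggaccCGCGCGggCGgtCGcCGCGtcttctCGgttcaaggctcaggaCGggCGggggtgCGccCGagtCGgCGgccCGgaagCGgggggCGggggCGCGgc
Hdac9: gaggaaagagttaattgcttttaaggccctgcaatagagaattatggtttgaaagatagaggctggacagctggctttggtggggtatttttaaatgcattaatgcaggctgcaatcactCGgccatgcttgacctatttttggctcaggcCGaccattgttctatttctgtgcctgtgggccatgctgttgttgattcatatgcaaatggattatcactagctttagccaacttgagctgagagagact
Smarca1: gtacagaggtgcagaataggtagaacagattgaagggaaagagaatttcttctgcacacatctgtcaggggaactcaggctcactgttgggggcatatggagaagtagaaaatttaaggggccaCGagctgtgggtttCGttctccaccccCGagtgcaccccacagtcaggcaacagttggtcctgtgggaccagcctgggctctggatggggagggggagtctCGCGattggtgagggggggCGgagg
The stretch before Ezh2 holds 23 CpG pairs and that before Kdm3a 31, whereas that before Hdac9 holds 2 and that before Smarca1 holds 6. Other members did not follow this pairing. The lowest ratios belonged to Setd5, at 0.086 and detected in 8 cells, and Smarcd2, at 0.18 and detected in 17 cells, and Arid5b, detected in every cell, had 0.50. Ing4, detected in no cell, had 1.02, and the highest ratio, 1.28, was that of Kdm7a, detected in 6 cells. Methylation was not measured here.

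The cells were divided by lineage genes alone. Ward clustering on 27 measured markers, 13 of epiblast and 14 of primitive endoderm, gave 10 epiblast-like and 10 primitive endoderm-like cells, and no chromatin gene took part. Fgf4 was detected in 10 of 10 epiblast-like cells and in 0 of 10 primitive endoderm-like cells, while Sox17 was detected in 1 epiblast-like cell and in all 10 primitive endoderm-like cells. These markers set the clusters, so their split is no separate support. By the difference defined below, 6 of the 13 epiblast markers were at least 2-fold higher in epiblast-like cells. Of the 14 primitive endoderm markers, 13 were so in primitive endoderm-like cells. The other, Hnf4a, was detected in 10 epiblast-like against 6 primitive endoderm-like cells, with a difference of 0.89. Bmp4 was detected in 6 cells of each cluster. Of 14 trophectoderm genes, 8 were measured and 6 were detected in 0 cells, Elf5, Gata3 and Krt7 among them, whereas Hand1 and Gata2 were detected in every cell. The Hand1 reading hardly varied, at 13.66 ± 0.08 in epiblast-like and 13.73 ± 0.07 in primitive endoderm-like cells, and is not taken as a sign of expression. The mean over the 8 measured genes, Hand1 among them, was 7.86 ± 0.71 in epiblast-like and 7.96 ± 0.42 in primitive endoderm-like cells (SD over 10 cells each). Cdx2 was detected in 15 cells but close to the floor, at 7.37 ± 0.44 in epiblast-like and 7.47 ± 0.25 in primitive endoderm-like cells. Differences are epiblast-like minus primitive endoderm-like means, after readings below an array's floor were set to that floor. Because the mean floor was 7.04 in epiblast-like cells and 7.25 in primitive endoderm-like cells, a gene detected nowhere differs by -0.21 through the floors alone.

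Over the 89 measured members the median difference was -0.01, beside -0.05 over all 9350 measured genes. A higher mean in epiblast-like cells was found for 42 of the 89, which is 47.2% against 44.5% of all measured genes. With readings under the floor kept as read, 17 members turned direction, the median was 0.20 beside 0.05 over all measured genes, and 66.3% of the members were higher in epiblast-like cells against 55.1% of all measured genes. The number of genes above the floor differed between the clusters, at 6946 ± 419 in epiblast-like and 6491 ± 303 in primitive endoderm-like cells, and its part in the differences was not tested. At least 2-fold higher in epiblast-like cells were 5 members (5.62%, against 3.07% of all measured genes), namely Kdm5b, Kdm3a, Sirt1, Cbx7 and Smarcd2. With readings kept as read these were 6 members, 6.74% against 11.9% of all measured genes, so the members lay above the background with the floor applied and below it without. At least 2-fold higher in primitive endoderm-like cells was 1 member, Kmt2a (1.12%, against 3.02%). Kdm7a and Setd5 passed too without cells 4, 8, 17 and 20. That made 3 of 88 measured members, beside 3.27% of all measured genes. As read, 6 members passed in this direction, 6.74% against 8.22%. No member separated the clusters without overlap, as 0.235% of all measured genes did. A difference larger than the larger of the 2 SDs was seen in 7 members toward epiblast-like cells (7.87%, against 4.22%) and in 3 toward primitive endoderm-like cells (3.37%, against 4.51%).

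Kdm3a, a demethylase of lysine 9 of histone H3, was read between 10.32 and 11.85 in epiblast-like cells, with a median of 11.14. In primitive endoderm-like cells it was read between 8.54 and 11.41, with a median of 9.79. The highest primitive endoderm-like cell reached into the epiblast-like range, and the other cells of that cluster lay in its lower part or under it. The mean was 11.27 ± 0.49 in epiblast-like and 9.74 ± 0.96 in primitive endoderm-like cells, a difference of 1.52 that is larger than either SD. Kdm3a was above the floor in every cell, so the floor does not enter this value.

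Kdm5b, a demethylase of lysine 4 of histone H3, was detected in 10 of 10 epiblast-like cells and in 6 of 10 primitive endoderm-like cells. Its readings ran from 8.44 to 10.51 with a median of 9.99 in epiblast-like cells, against 3.62 to 9.63 with a median of 7.92 in primitive endoderm-like cells. With the floor applied, the means were 9.86 ± 0.64 in epiblast-like and 8.18 ± 0.95 in primitive endoderm-like cells, a difference of 1.68. A second Kdm5b probe set differed in the same direction, by 1.28, and correlated with the first at r = 0.62 over the 20 cells.

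Sirt1, an NAD-dependent deacetylase, had readings of 9.13 to 10.83 with a median of 9.81 in epiblast-like cells, against 3.57 to 10.24 with a median of 8.85 in primitive endoderm-like cells. Its difference was 1.21, and a single primitive endoderm-like cell stood far under the floor. Cbx7, a chromobox protein of PRC1 that binds methylated lysine 27, had readings of 8.37 to 10.42 with a median of 9.35 in epiblast-like cells, against 6.54 to 10.11 with a median of 7.98 in primitive endoderm-like cells, and differed by 1.14. A second Cbx7 probe set, detected in 7 cells, differed by 0.26. Smarcd2, a SWI/SNF subunit, had readings of 8.31 to 11.14 with a median of 9.94 in epiblast-like cells, against 3.25 to 10.73 with a median of 8.78 in primitive endoderm-like cells. Its difference of 1.02 was smaller than the SD of 1.17 among primitive endoderm-like cells. The second Smarcd2 probe set gave 1.11 and followed the first at r = 0.92.

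Kmt2a (MLL1), a methyltransferase of lysine 4 of histone H3, was detected in 4 of 10 epiblast-like cells and in 9 of 10 primitive endoderm-like cells. Its readings ran from 4.69 to 8.84 with a median of 6.82 in epiblast-like cells, against 4.97 to 10.32 with a median of 8.57 in primitive endoderm-like cells. With the floor applied, the means were 7.40 ± 0.68 in epiblast-like and 8.89 ± 0.98 in primitive endoderm-like cells, a difference of -1.49. The second Kmt2a probe set was above the floor in 1 cell and could not be used to compare the clusters. Setd5, named for its SET domain, was detected in 1 of 10 epiblast-like cells and in 7 of 10 primitive endoderm-like cells and differed by -0.74. Hdac4, the third of these, differed by -0.42, equal to the larger SD at this precision, with readings mostly under the floor, and its second probe set, detected in 5 cells, differed by 0.01 (r = 0.06).

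Several of these calls depended on the probe sets or cells used. With all probe sets of a gene averaged, Kdm5b differed by 0.60, Cbx7 by 0.23, Smarcd2 by 0.62 and Kmt2a by -0.15, all under 2-fold, whereas Kdm3a has a single probe set. Without primitive endoderm-like cells 4, 8, 17 and 20, described further with the cell cycle genes, Sirt1 differed by 0.81 and Smarcd2 by 0.77. Without cell 19, an epiblast-like cell, Smarcd2 differed by 0.93. Over the 20 cells the readings also followed the number of genes above the floor to differing degrees, with rho of 0.52 for Cbx7, 0.44 for Kdm5b, 0.37 for Kdm3a, 0.35 for Sirt1, 0.15 for Smarcd2, -0.60 for Kmt2a and -0.63 for Setd5.

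**Figure D2:**
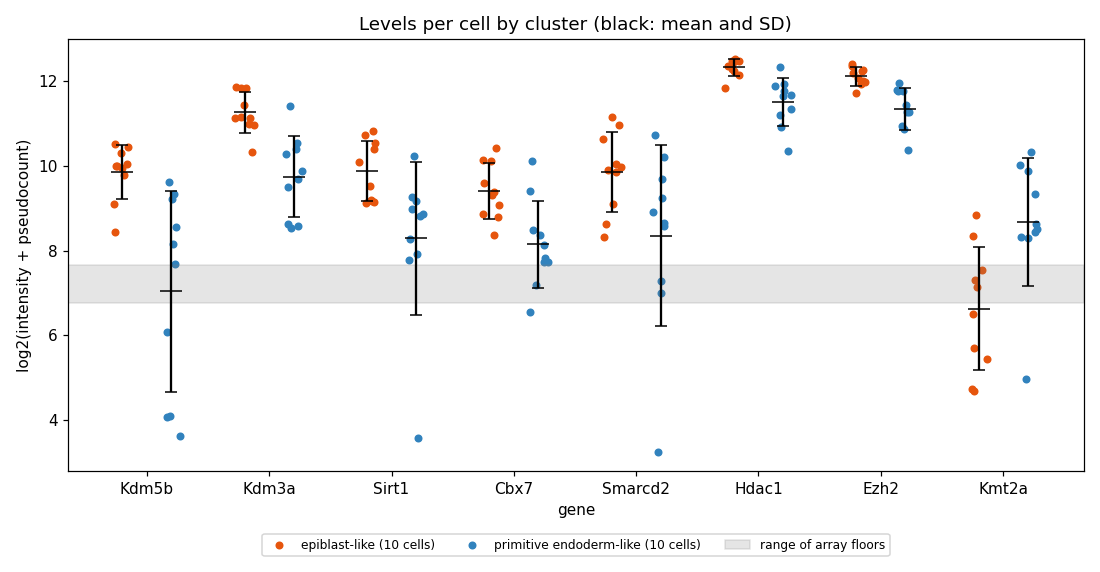
Level of 8 chromatin genes, log2(intensity + pseudocount) on the vertical axis, in 10 epiblast-like cells (left of each pair) and 10 primitive endoderm-like cells (right), with the mean and SD of the readings before the floor was applied as black bars and the range of array floors shaded. Kdm3a, Hdac1 and Ezh2 lay above the shaded range in every cell, and Kmt2a lay lower in epiblast-like cells, with overlap between the clusters for each gene.

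The genes detected in every cell can be compared without the floor. Their mean per cell was 10.68 ± 0.10 in epiblast-like cells, from 10.49 to 10.79, against 10.41 ± 0.13 in primitive endoderm-like cells, from 10.18 to 10.58 (SD over 10 cells each). Of these 25 genes, 20 had a higher mean in epiblast-like cells (80%), with a median difference of 0.20. Over all 2720 genes detected in every cell the share was 53.2% and the median difference 0.02. Genes of the G2 and M phases moved in the same direction: their mean was 10.09 ± 0.51 in epiblast-like cells and 8.98 ± 1.26 in primitive endoderm-like cells. Over the 20 cells this mean and that of the 25 members correlated at r = 0.74 and rho = 0.68, with r = 0.58 and rho = 0.33 within epiblast-like cells and r = 0.67 and rho = 0.56 within primitive endoderm-like cells, as a description of cells that share arrays, amplification and clusters. For the mean of all 2720 genes detected in every cell the values were r = 0.63 and rho = 0.42 over the 20 cells. They were r = 0.05 and rho = -0.13 within epiblast-like cells, and r = 0.74 and rho = 0.70 within primitive endoderm-like cells. Cells 4, 8, 17 and 20, all primitive endoderm-like, had the lowest G2 and M phase means and also correlated least, on average, with the remaining arrays. Without them the mean of the 25 members was 10.68 in epiblast-like cells and 10.47 ± 0.10 in the 6 remaining primitive endoderm-like cells, and 20 of 25 were again higher in epiblast-like cells. The part of the cell cycle in these differences was not tested. The count of 20 rests on the brightest probe sets. Of second probe sets detected in every cell, those of Smarca5 (-0.17, r = 0.03) and Kmt5a (-0.02) turned toward primitive endoderm-like cells. Those of Suz12 (0.14) and Setd1a (0.36) turned the other way. Those of Arid1a, Brd8, Cbx1, Hdac2, Kdm1a and Smarcb1 kept their direction, as did Kmt2c (19 cells). Second sets of Arid2, Arid5b, Cbx5, Smarce1 and Smarca4, detected in 3 to 18 cells, turned as Smarca5 did.

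PRC2 had its 3 core genes above the floor in every cell. Ezh2, the catalytic subunit, was read from 11.71 to 12.41 with a median of 12.13 in epiblast-like cells, against 10.38 to 11.96 with a median of 11.36 in primitive endoderm-like cells. The mean was 12.12 ± 0.22 in epiblast-like and 11.35 ± 0.50 in primitive endoderm-like cells, a difference of 0.77 that is larger than either SD, while the ranges overlapped. Eed, which binds the methylated tail, averaged 11.84 ± 0.27 in epiblast-like and 11.39 ± 0.48 in primitive endoderm-like cells, a difference of 0.45. Suz12, the scaffold, averaged 10.97 ± 0.36 in epiblast-like and 11.11 ± 0.40 in primitive endoderm-like cells, a difference of -0.14 within the spread, and its second probe set, detected in every cell, differed by 0.14. Ezh1, the alternative catalytic subunit, was above the floor in 18 cells and differed by 0.13. Ezhip, an inhibitor of PRC2, was above it in no cell.

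Among the class I deacetylases, Hdac1 was read from 11.83 to 12.53 with a median of 12.38 in epiblast-like cells, against 10.34 to 12.34 with a median of 11.66 in primitive endoderm-like cells. Its difference of 0.82 was larger than either SD. Hdac2 averaged 11.38 ± 0.29 in epiblast-like and 11.16 ± 0.37 in primitive endoderm-like cells, a difference of 0.22. Hdac3, above the floor in 18 cells, differed by -0.10, and Hdac8 was above the floor in no cell. Of 7 class II and IV deacetylases 4 were measured, and their median difference was -0.25, or 0.01 as read. In the HP1 family, readers of methylated lysine 9, Cbx5 differed by 0.33 and Cbx1 by 0.15, each within its spread, with a second Cbx5 probe set at -0.44 (r = -0.28), and Cbx3 was not above the floor.

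All 14 SWI/SNF genes were measured, 10 of them with a higher mean in epiblast-like cells (44.5% of all measured genes had one), and their median difference was 0.10. Of the 2 ATPases, Smarca4 averaged 10.42 ± 0.23 in epiblast-like and 10.11 ± 0.52 in primitive endoderm-like cells, above the floor in every cell, while its second probe set, detected in 3 cells, differed by -0.16. Smarca2 was detected in 9 epiblast-like cells against 7 primitive endoderm-like cells and differed by 0.06. Arid1a, the DNA-binding subunit of the BAF form, averaged 11.53 ± 0.34 in epiblast-like and 11.11 ± 0.28 in primitive endoderm-like cells, a difference of 0.42 larger than either SD, and its second probe set differed by 0.47. Its paralog Arid1b was detected in 4 epiblast-like cells against 7 primitive endoderm-like cells and differed by -0.47, within its spread. Arid2 and Brd7, which belong to the PBAF form, differed by 0.04 and -0.64, and Brd9, of the non-canonical form, by 0.69. The second Arid2 probe set, detected in 18 cells, differed by -0.54 (r = 0.23). The core subunits Smarcb1 and Smarce1 differed by -0.12 and 0.13, and a second Smarce1 probe set by -0.16. Smarcc1, a scaffold subunit, was above the floor in 18 cells and differed by 0.02, with a second probe set at -0.23, and its paralog Smarcc2 was above it in 10 cells and differed by -0.44. Within the Smarcd group, Smarcd1 differed by 0.56, Smarcd2 by 1.02, and Smarcd3, known as the cardiac and neuronal form, was above the floor in 3 cells, all epiblast-like.

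**Figure D3:**
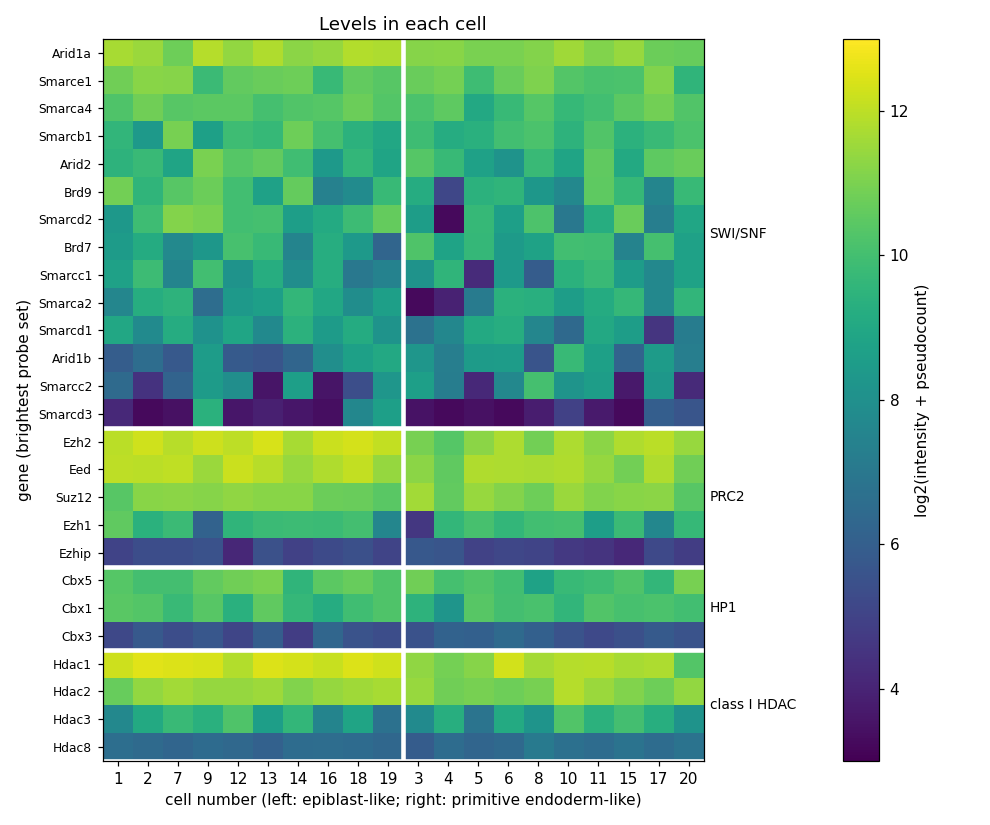
Level, log2(intensity + pseudocount) as colour, of the SWI/SNF, PRC2, HP1 and class I deacetylase genes (rows) in each of the 20 cells (columns, epiblast-like left and primitive endoderm-like right of the white line). Colours are to be read along a row, since probe sets of different genes are not on a common scale: Ezh2 and Hdac1 were lighter in most epiblast-like cells, and Smarcd3 was above the floor in 3 cells.

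Lysine 4 of histone H3, methylated at active genes, has its own writers and erasers. Of 7 measured Kmt2 and Setd1 genes, grouped here as the methyltransferase family of this mark, 1 had a higher mean in epiblast-like cells, or 2 as read. Over all measured genes the share was 44.5%, or 55.1% as read. Kmt2e was placed in this group by its name, and no enzyme activity was measured. It was detected in 7 cells and differed by -0.02, or by 0.16 as read. The median difference of the 7 was -0.22, with Kmt2b at 0.03 and Kmt2c at -0.22. The brightest Setd1b probe set differed by -0.34, whereas its second, detected in 9 cells, differed by 0.56 (r = -0.12). The second Kmt2c probe set, detected in 19 cells, kept the direction of the first, at -0.15. The brightest Setd1a probe set differed by -0.01, and its other probe set turned this direction, as given next. The count therefore depended on which Setd1b and Setd1a probe sets were read. Setd1a gave nearly the same reading in every cell, 12.85 ± 0.09 over the 20 cells, whereas its other probe set read 8.85 ± 0.61 and differed by 0.36, and the 2 sets correlated at r = 0.10. Of the genes of unrelated tissues used for the floor, 5 also read above it in every cell, with SDs of 0.21 to 0.34, so flat readings above the floor also occurred for genes of unrelated tissues. The demethylase Kdm1a differed by 0.15. Kdm5a, detected in 5 epiblast-like cells against 3 primitive endoderm-like cells, differed by -0.10 with the floor applied and by 0.42 as read.

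Enzymes of lysine 9 spread in both directions. The methyltransferases Setdb1 and Ehmt1 (GLP) differed by 0.90 and 0.49, and Ehmt2 (G9a), the partner of Ehmt1, by -0.58, each within the larger SD. The demethylase Kdm3b differed by 0.77 in the direction of its paralog Kdm3a, also within the larger SD. Second probe sets of Setdb1, detected in 3 cells, and of Kdm3b, detected in 12, differed by -0.33 and 0.03. Kdm7a was detected in 1 epiblast-like cell against 5 primitive endoderm-like cells and differed by -0.74, while its second probe set, detected in 3 epiblast-like cells against 1 primitive endoderm-like cell, differed by 0.16. Kdm2b, a lysine 36 demethylase that recruits PRC1 to CpG islands, differed by 0.89, and its second probe set gave 0.78 with r = 0.95. Kdm6b, the lysine 27 demethylase of the list, was above the floor in 15 cells and differed by -0.41. Chd7, a remodeller, was above it in 7 cells and differed by -0.67.

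Spread between cells was set against genes of like level, as the SD of a member minus the median SD of the measured genes nearest in mean level. The median over the 89 members was 0.02, beside -0.00 over all measured genes. The 10 with the largest excess were Arid4b at 1.31, Setd6 at 1.03, Kdm5b at 0.87, Sirt7 at 0.85, Ing5 at 0.79, Smarcd2 at 0.70, Hdac6 at 0.68, Kdm4a at 0.67, Smarcc2 at 0.59 and Sirt3 at 0.57. Setd6, a methyltransferase, read 8.30 ± 2.44 with 16 cells above the floor, 8 in each cluster, and its second probe set followed at r = 0.99. Arid4b read 7.03 ± 2.36 with 14 cells above the floor, but none of its other 5 probe sets was above the floor in any cell. Ing5, a reader of methylated lysine 4, was under the floor in cell 17 alone, where it read 3.26.

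The 10 with the least spread relative to genes of like level were Hdac11 at -0.94, Chd9 at -0.80, Hdac10 at -0.78, Kmt2e at -0.65, Hdac4 at -0.46, Kdm2a at -0.45, Kmt2b at -0.36, Brd8 at -0.36, Setd4 at -0.31 and Smarcal1 at -0.29. Hdac11 read 7.73 ± 0.51 and Kmt2e 6.90 ± 0.35, close to the floors. Hdac10, at 6.02 ± 1.20, and Hdac4, at 5.84 ± 1.48, were detected in 4 and 6 cells, so most of their readings lay under the floor. Kmt2b, at 9.70 ± 0.55, and Brd8, at 9.62 ± 0.56, were well above the floor in every cell.

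**Figure D4:**
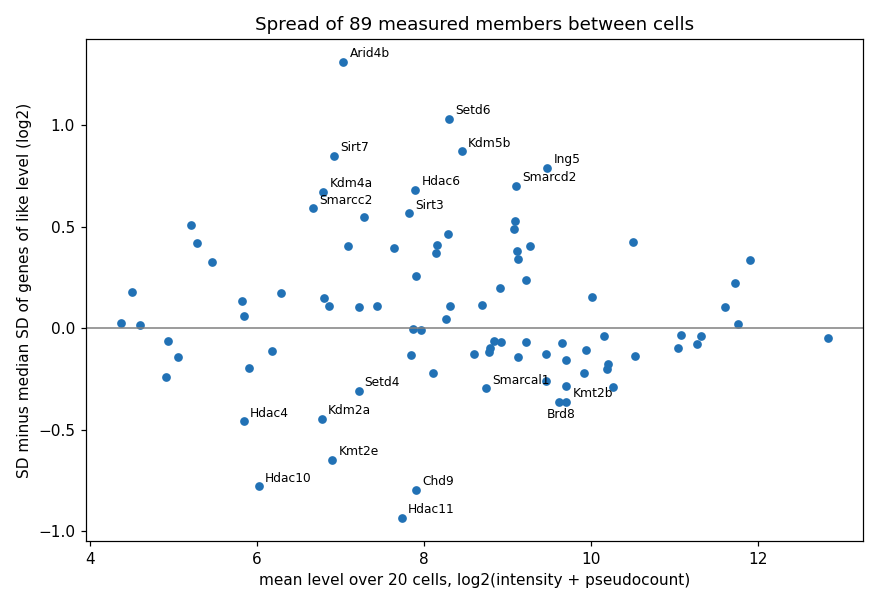
Spread of the 89 measured members over 20 cells: SD minus the median SD of genes of like level (vertical axis, log2) against mean level (horizontal axis, log2(intensity + pseudocount)), with the 10 highest and the 10 lowest named. Arid4b, at 1.31, and Setd6, at 1.03, lay highest and Hdac11, at -0.94, lowest.

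Members did not move together as a whole. The median Spearman correlation over the 3916 pairs of measured members was 0.011, with the 5th percentile at -0.373 and the 95th at 0.396, beside a median of 0.002 and percentiles of -0.391 and 0.394 over 43706575 pairs of all measured genes. The highest was Ezh2 with Hdac1, at 0.75 over the 20 cells, 0.36 within epiblast-like and 0.54 within primitive endoderm-like cells. Hdac1 with Kdm3a followed at 0.74, with 0.38 and 0.28 within the clusters, so part of both values lies between the clusters. The next were Brd3 with Brd8 at 0.72, Kmt5b with Setd1a at 0.71, Arid1a with Sirt1 at 0.71 and Chd9 with Hdac10 at 0.69. The lowest were Chd6 with Kmt5c and Brd2 with Kdm1a, both at -0.67, and Chd1 with Smarca2 at -0.65. All points share the arrays and the amplification, and these are the extremes of many pairs. Chd6 was detected in 3 cells, Hdac10 in 4 and Chd1 in 8, so their values rank mostly readings under the floor. The Setd1a reading hardly varied and did not follow its other probe set, so its value is not read as a relation between the genes. The second Brd2 probe set, detected in 19 cells, ran against the first at r = -0.21 and rho = -0.45. The value of Brd2 with Kdm1a therefore rests on the brightest Brd2 probe set alone.

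**Figure D5:**
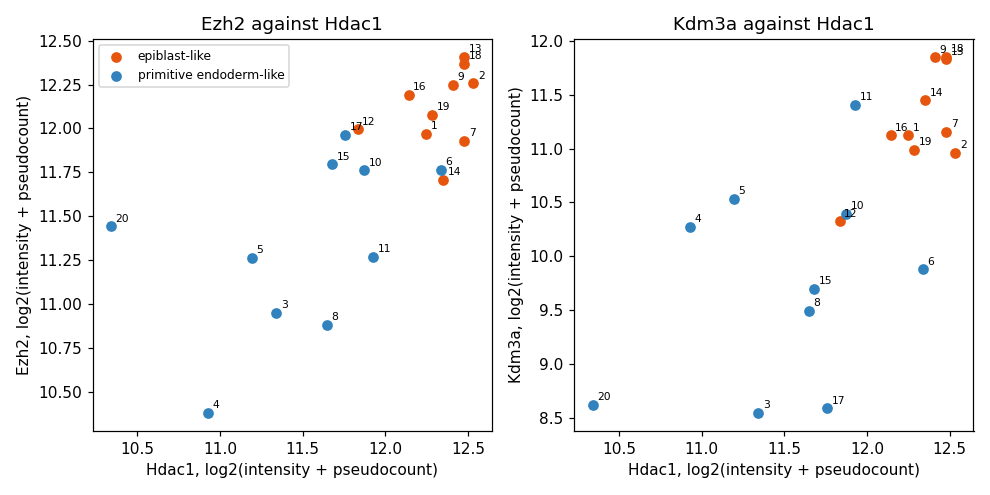
Level of Ezh2 (left) and Kdm3a (right) against Hdac1 in 20 numbered cells, all axes in log2(intensity + pseudocount), with epiblast-like and primitive endoderm-like cells in separate colours. Epiblast-like cells gathered at the upper right, and the rank correlations over all cells were 0.75 and 0.74.

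Several members had more than 1 probe set, 71 of the 108. For 41 measured members the second probe set was also above the floor in at least 3 cells, and its correlation with the first had a median r of 0.28, from -0.32 to 0.99. It was at least 0.7 for 11 of them and under 0.3 for 21. The cluster difference had the same direction in both probe sets for 21 of the 41 and the opposite direction for 20. The values of a gene read by a single probe set, such as Kdm3a, have no such check.

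Partners of the same complexes that the naming rule does not reach were taken from 8 lists with 123 genes on the array. Of these, 44 were above the floor in every cell (35.8%, against 14.9% of all genes) and 8 in none (6.50%, against 39.9%). Measured were 111 of the 123, where 51.4% of all genes were measured. With the floor applied, at least 2-fold higher in epiblast-like cells were 6 (5.41%, against 3.07% of all measured genes) and in primitive endoderm-like cells 1 (0.901%, against 3.02%). Partner counts with readings kept as read are not given here. The 5 measured PRC2 partners had a median difference of 0.61: Jarid2 averaged 12.07 ± 0.24 in epiblast-like and 11.38 ± 0.59 in primitive endoderm-like cells, and Aebp2 differed by 1.27, beside SDs of 0.26 in epiblast-like and 0.44 in primitive endoderm-like cells. In NuRD, Mta3 averaged 10.74 ± 0.27 in epiblast-like and 9.26 ± 1.12 in primitive endoderm-like cells, a difference of 1.44, while Gatad2b differed by -0.74. Wdr5, a core subunit of the lysine 4 methyltransferase complexes, averaged 10.84 ± 0.58 in epiblast-like and 9.78 ± 0.89 in primitive endoderm-like cells, a difference of 1.06, and Rbbp5 of the same complexes differed by 0.68. Among SWI/SNF partners Bicral differed by 1.37 and Bcl11a by -0.55, and among PRC1 partners Pcgf6 differed by 0.81 and Phc2 by -0.81. The acetyltransferase Kat6b differed by 1.16 and Epc1, a subunit of an acetyltransferase complex, by -1.40. Among other methyltransferases Nsd3 differed by -0.91 and Smyd3 by 0.83, and Ino80c and Ino80 of the INO80 remodeller by 0.59 and 0.58. Other partners picked for naming were Actl6a, Ss18, Rnf2, Rbbp7, Sall4, Sin3b, Dpy30, Hcfc1, Trim28, Nsd1, Hat1, Kat2a, Ruvbl2 and Atrx, all detected in every cell, and their differences lay between -0.36 (Hat1) and 0.64 (Sin3b).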

How the data were processed

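Each of the 20 arrays measured amplified cDNA of a single cell. Per the labels' protocols, the authors amplified the cDNA by PCR (V1V3 method) before labelling. The deposited values are linear intensities per probe set, from 1 to 26616, and the summarisation software is not given in the sources used here. Probe sets were named from GEO's platform annotation, and 34958 of 45101 have a single gene symbol. Intensities were quantile normalised and log2 transformed with a pseudocount of 8.49, which is the 25th percentile of an array, taken as the median of the 20 arrays. PCR amplification of 1 cell adds spread that cannot be separated from differences between cells, and the number of arrays limits the precision. The members, gene lists and settings were chosen with earlier results of these data known.

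Brightness decided which probe set each gene was read from, and so entered every value. Compared between genes, mean level served to find the genes of like level for the spread and to pick genes to name. Named were the 12 members of highest mean (all among the 25 detected in every cell), the 10 of largest and the 10 of smallest relative spread, those differing at least 2-fold, all SWI/SNF, PRC2, HP1 and class I deacetylase genes, the 6 highest and 3 lowest pairs, and leading genes of the companion lists. Other members named were chosen after their values were seen. The clustering gave the same split from the 500 most variable genes. Alternatives covered the pseudocount, normalisation, floor, filter, choice of probe set and cells left out, and scripts were tested on simulated data. Python 3.11.15, numpy 2.4.6, pandas 2.3.3, scipy 1.17.1 and matplotlib 3.10.9 were used. Protein sequences were not used here.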

Additional observations from a re-analysis of the deposited data

How the results depend on the processing

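Under 13 other settings, and a common floor chosen after seeing the data, 79 of 94 values stayed within their limits, 15 moved and 0 reversed. Many of these values could not move. The other ways of dividing the cells gave the same clusters, and counts of members above the floor do not depend on the filter or the clusters. The 79 is therefore not a measure of stability. The median difference of the members was -0.01, and 0.20 with readings under the floor kept as read (all measured genes -0.05 and 0.05). The median level, 8.32, became 8.63 with a larger pseudocount, 9.08 for members detected in 10 or more cells, 7.90 without a filter, 8.65 with a higher floor and 7.46 with probe sets averaged. Members above the floor in every cell numbered 25, and 12 with probe sets averaged. Members above it in no cell numbered 15, against 8 with a floor at the 90th percentile and 31 with probe sets averaged. Shares of all genes detected at these other settings are not given here, so these detection counts have no background beside them. Those 2-fold higher in epiblast-like cells numbered 5, against 6 as read. With the higher floor they were 3 of 84 measured members, beside 2.25% of all measured genes. With probe sets averaged they were 2 of 63, beside 2.31%. Those 2-fold higher in primitive endoderm-like cells numbered 1, against 6 as read. With the 90th percentile floor they were 2 of 95 measured members, beside 3.47% of all measured genes. With probe sets averaged they were 0 of 63, beside 2.24%. Without cells 4, 8, 17 and 20 they were 3 of 88, beside 3.27%. As read, 11.9% of all measured genes were 2-fold higher in epiblast-like and 8.22% in primitive endoderm-like cells. Without those 4 cells Cbx7, Kdm2b, Kdm3a and Kdm5b were 2-fold higher in epiblast-like cells, 4 of 88 measured members beside 3.12% of all measured genes. With the higher floor Cbx7 differed by 0.97 and Smarcd2 by 0.86, and with the larger pseudocount Smarcd2 differed by 0.97. Over all 14 alternatives Kdm3a differed by 1.20 to 1.54, Ezh2 by 0.65 to 0.79 and Hdac1 by 0.60 to 0.84. Each of these genes has a single probe set and was above the floor in every cell. Settings of the floor, filter and probe sets therefore could not move their values, and the other ways of dividing the cells gave the same clusters. Only the normalisation, the pseudocount and the cells left out could move them. Apart from averaging probe sets and leaving cells out, which change the construction, the cause was not tested. No paired analysis was possible because all cells carry the same label. Dim probe sets near the floor limit what can be said of weak genes.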
